A study of Homo sapiens with 2 samples.

Results

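Aldo-keto reductases are soluble enzymes that use NADPH to reduce aldehydes and ketones to alcohols. Their substrates include sugars, retinaldehyde, steroids, prostaglandins and the aldehydes left by lipid peroxidation and by drugs. Several of their genes are known targets of NRF2, the transcription factor of the antioxidant response, and AKR1B10 and the AKR1C genes are known for high levels in lung and liver carcinomas. The 9 genes described here were chosen by name from the family, with earlier results of these data known, out of 60527 genes in the deposited table. All 9 were found, as 1 entry each. Their levels and differences are therefore a description, with no test.

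The RNA came from cells that the labels call SK-MEL-2, an established line from a human skin melanoma. One culture was given JNJ-7706621 at 1.75 µM for 48 h and the other DMSO, the solvent, for 48 h, with no genetic change named in the labels for either. The compound blocks cyclin-dependent kinases and Aurora kinases. Each group had 1 library, with 22817719 reads for JNJ-7706621 and 23377161 for DMSO behind the values, so the spread between cultures is unknown and no difference could be checked on a replicate. Of 8 melanocyte markers 2, MITF and PMEL, reached a mean of 1 FPKM (fragments per kilobase of exon per 1000000 reads). MITF had 2.27 FPKM in the JNJ-7706621 library and 2.65 FPKM in the DMSO library. PMEL had 3.71 FPKM in the JNJ-7706621 library and 2.00 FPKM in the DMSO library. SOX10, a transcription factor of the lineage, had 0 reads in the JNJ-7706621 library and 1 in the DMSO library. The 5 epithelial markers EPCAM, KRT8, KRT18, KRT19 and CDH1 all passed 1 FPKM and summed to 1979 FPKM in the JNJ-7706621 library and 1962 FPKM in the DMSO library. The data thus go against the labelled cell type in both libraries alike. Of the 19 markers of fibroblasts, endothelium, leukocytes and hepatocytes, 0 reached 1 FPKM.

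The genes lie in 3 clusters and at 1 single site (GRCh38), and how alike they are decides which reads can be told apart. AKR1C1 (chromosome 10, 4963253 to 4983283, plus strand), AKR1C2 (4987400 to 5018031, minus strand) and AKR1C3 (5035354 to 5107686, plus strand) are neighbours. The coding sequences of AKR1C1 and AKR1C2 were 98.0% identical, with 19 differing bases of 969, while AKR1C3 was 91.4% and 91.0% identical to them. The first 60 coding bases of the 3 genes are printed to show this, at chr10:4963445-4963504 (plus strand), chr10:5003776-5003835 (minus strand) and chr10:5094445-5094504 (plus strand), each within 1 exon. Capitals mark the 8 positions that are not the same in all 3.
AKR1C1: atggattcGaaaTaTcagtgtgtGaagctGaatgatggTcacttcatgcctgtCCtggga
AKR1C2: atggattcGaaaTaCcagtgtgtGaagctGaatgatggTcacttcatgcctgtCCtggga
AKR1C3: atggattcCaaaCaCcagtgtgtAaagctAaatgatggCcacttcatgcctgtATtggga
In this stretch AKR1C1 and AKR1C2 differ by 1 base, and AKR1C3 differs from AKR1C1 by 8 and from AKR1C2 by 7.

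AKR1B1 (chromosome 7, 134442350 to 134459284, minus strand), AKR1B10 (134527592 to 134541408, plus strand) and AKR1B15 (134549136 to 134579875, plus strand) form the second cluster and are less alike. The coding sequence of AKR1B1 was 76.1% identical to that of AKR1B10, and AKR1B15, whose annotated coding sequence is longer, was 85.9% identical to AKR1B10. The 60 coding bases nearest the end that lie in 1 exon in all 3 genes are printed for contrast with the AKR1C genes, at chr7:134445238-134445297 (minus strand), chr7:134538958-134539017 (plus strand) and chr7:134577727-134577786 (plus strand). Capitals mark the 18 positions that are not the same in all 3.
AKR1B1: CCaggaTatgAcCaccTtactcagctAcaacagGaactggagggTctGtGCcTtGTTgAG
AKR1B10: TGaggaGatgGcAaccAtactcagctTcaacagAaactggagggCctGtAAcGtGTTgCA
AKR1B15: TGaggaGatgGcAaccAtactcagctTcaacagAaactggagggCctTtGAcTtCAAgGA
Here AKR1B1 differs from AKR1B10 by 14 bases and from AKR1B15 by 16, and AKR1B10 and AKR1B15 differ by 7. AKR7A2 (chromosome 1, 19303965 to 19312146, minus strand) and AKR7A3 (19282558 to 19289250, minus strand), with coding sequences 85.0% identical, are the third cluster, and AKR1A1 stands alone on the same chromosome (45550543 to 45570049, plus strand). No exon of the 9 genes overlaps an annotated exon of another gene on either strand.

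The read length is not given in the sources used here, so likeness was also measured as the share of a gene's transcript words of 50, 100 and 150 bases that occur in transcripts of another gene. AKR1C2 shared the most at each length, 38.9%, 23.1% and 13.7% of its words, nearly all with AKR1C1. AKR1C1 shared 28.6%, 16.7% and 10.1%. AKR7A3 shared 23.3%, 12.2% and 6.21%, mostly with AKR7L, a gene of the same cluster. AKR1C3 shared 4.53%, 1.75% and 0.444%. AKR1B10 shared 14.8% of its words of 50 bases, 9.70% of all with AKR1B15, but 1.59% of its words of 100 bases and 0 of 150. AKR1B1 and AKR1A1 shared 6.98% and 2.54% of their words of 50 bases and 0 of the longer ones. Of all their words of 50 bases, 0.130% and 0.144% lay in another of the 9 genes. The values of AKR1C1 and AKR1C2 are therefore uncertain as single genes, since the counting could divide their common reads between them. AKR1B1 and AKR1A1 shared the smallest parts of their words of 50 bases with the others of the 9 genes.

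**Figure D1:**
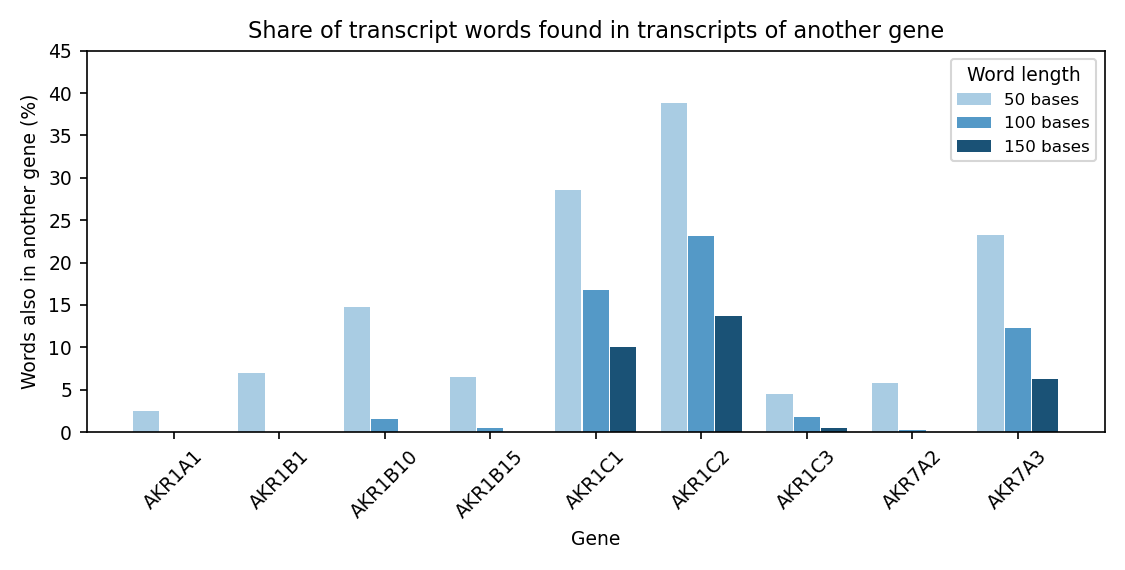
Bars give, for each of the 9 genes, the percent of transcript words of 50, 100 and 150 bases (light to dark) that also occur in a transcript of another gene in GENCODE release 29. AKR1C2 and AKR1C1 stand highest at each length, with 13.7% and 10.1% at 150 bases, and AKR1B1 and AKR1A1 have 0 at 100 and 150 bases.

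Part of the family was expressed at very high levels in both cultures. AKR1B10, which reduces retinaldehyde and other lipid aldehydes, had 2148 FPKM in the JNJ-7706621 library (95% counting interval 2134 to 2163) and 2113 FPKM in the DMSO library (2099 to 2127). That placed it at rank 4 among protein-coding genes in each library, next below GAPDH at 2180 FPKM with JNJ-7706621 and 2258 FPKM with DMSO. AKR1C2, which inactivates dihydrotestosterone, had 521 FPKM in the JNJ-7706621 library and 619 FPKM in the DMSO library, at rank 38 and 33 among protein-coding genes. AKR1C3, which makes testosterone from androstenedione and also forms prostaglandin F, had 474 FPKM in the JNJ-7706621 library and 424 FPKM in the DMSO library, at rank 47 and 52.

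AKR1C1, which inactivates progesterone, had 137 FPKM in the JNJ-7706621 library and 153 FPKM in the DMSO library. AKR1B1, the aldose reductase that turns glucose into sorbitol, had 241 FPKM in the JNJ-7706621 library and 115 FPKM in the DMSO library, at rank 113 and 248 among protein-coding genes. The other genes stood far lower. AKR1A1, the widely expressed aldehyde reductase, had 29.8 FPKM in each library.

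AKR7A2, which reduces succinic semialdehyde, had 15.6 FPKM in the JNJ-7706621 library and 14.1 FPKM in the DMSO library. AKR1B15, a close relative of AKR1B10, had 11.4 FPKM in the JNJ-7706621 library and 11.0 FPKM in the DMSO library. AKR1B10 thus stood at 189 times the level of AKR1B15 in the JNJ-7706621 library and at 192 times in the DMSO library by exon length. By the length of the principal transcript, the main coding form in the annotation, it stood at 102 times in the JNJ-7706621 library and at 104 times in the DMSO library. In sequence, 5.43% of the words of 50 bases of AKR1B15 occur in AKR1B10. The part of reads common to both in the value of AKR1B15 was not tested.

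AKR7A3, named for its action on the aldehyde of aflatoxin, was at the edge of detection. It had 0 reads in the JNJ-7706621 library, which allows up to 0.108 FPKM at 3 reads, and 7 reads or 0.246 FPKM (0.0991 to 0.508) in the DMSO library. Taken as it stands, the level in the DMSO library was 2.28 times that floor. With the counting error of both libraries, the 95% interval of the ratio ran from 0 to 0.711. Its upper end stands for a level 1.41-fold lower in the JNJ-7706621 library. That limit holds counting error alone and no spread between cultures. The interval for 0 reads reached 0.133 FPKM. Its mean was under the 1 FPKM set for comparison. The read number rests on an exon length of 1215 bases, against 1710 annotated.

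**Figure D2:**
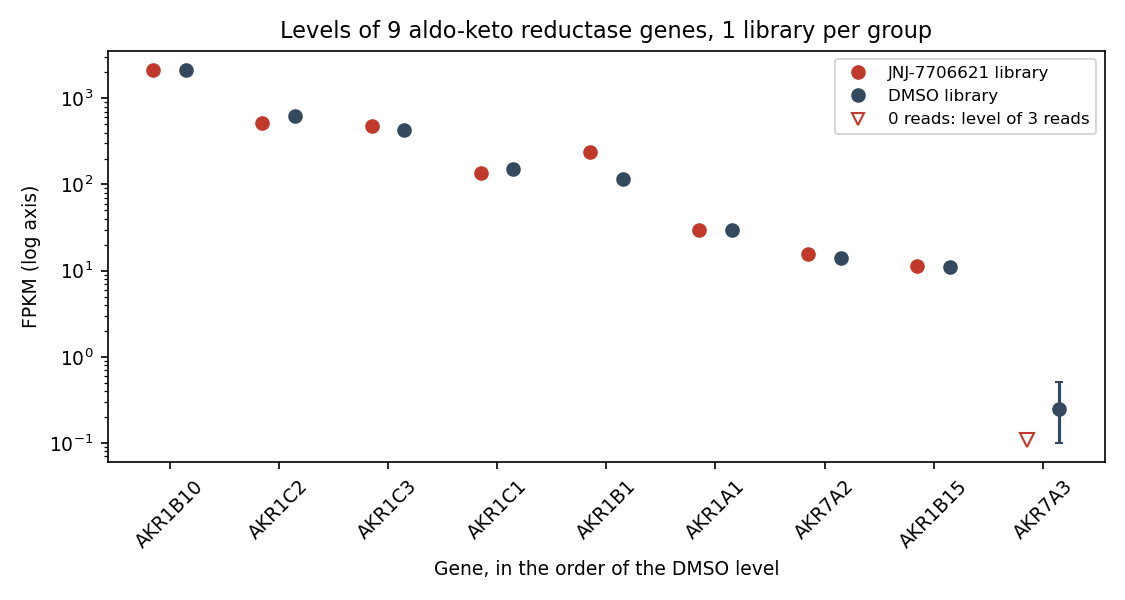
Points give the FPKM of each of the 9 genes on a log axis, in the JNJ-7706621 library (red, left) and the DMSO library (dark, right), with 95% counting intervals, most of them smaller than the point. The open triangle stands at 0.108 FPKM, the level of 3 reads, since AKR7A3 had 0 reads with JNJ-7706621. AKR1B10 stands at 2148 and 2113 FPKM, and AKR1B1 shows the widest gap among the genes above 1 FPKM.

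In order of level, the JNJ-7706621 library had AKR1B10, AKR1C2, AKR1C3, AKR1B1, AKR1C1, AKR1A1, AKR7A2 and AKR1B15. The DMSO library had the same order but with AKR1C1 above AKR1B1. Neighbours in each order had counting intervals that did not overlap, but the spread between cultures is unknown. AKR1B1 stood at 1.76 times the level of AKR1C1 in the JNJ-7706621 library and at 0.755 times in the DMSO library.

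This order depends on the exon length by which reads are divided. The exon lengths behind the FPKM values were 8765 bases for AKR1C1 and 6461 for AKR1C2, as annotated over all their exons, and 3911 for AKR1C3, against 4532 annotated, whereas coding sequences span only 948 to 1077 bases in the 9 genes. Divided by the length of the principal transcript instead, AKR1B1 stood above AKR1C1 in both libraries. Its level was 3.48 times that of AKR1C1 in the JNJ-7706621 library and 1.498 times in the DMSO library. These transcripts have 1409 bases for AKR1B1 and 6705 for AKR1C1. Before division by length, AKR1C1 had more reads than AKR1B1, 27403 against 20066 in the JNJ-7706621 library and 31289 against 9846 in the DMSO library. By principal transcript, AKR1C2 stood at 0.873 times the level of AKR1C3 in the JNJ-7706621 library, against 1.10 times by exon length. AKR7A2 then stood below AKR1B15, at 0.866 times its level in the JNJ-7706621 library and 0.809 times in the DMSO library, against 1.37 and 1.28 times by exon length. AKR1B10 kept the top place by these lengths. It stood at 4.13 times AKR1C2 in the JNJ-7706621 library and 3.42 times in the DMSO library by exon length. The ratios were 2.68 in the JNJ-7706621 library and 2.21 in the DMSO library by principal transcript. Both lengths were greater for AKR1C2, at 6461 and 3756 bases, than for AKR1B10, at 1773 and 1590. Before division by length, AKR1C2 had more reads than AKR1B10 in the DMSO library, 93452 against 87591, and fewer in the JNJ-7706621 library, 76743 against 86912.

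By reads, the 9 genes took 257028 in the JNJ-7706621 library and 264606 in the DMSO library, 1.13% of each. AKR1B10 took 0.381% of the reads in the JNJ-7706621 library and 0.375% in the DMSO library. AKR1C2 took 0.336% in the JNJ-7706621 library and 0.400% in the DMSO library. The 3 AKR1C genes took 0.642% in the JNJ-7706621 library and 0.700% in the DMSO library. The share of reads of the 9 genes together was thus nearly equal in both libraries, while the shares of single genes differed between them. Shares of reads weigh longer transcripts more, and with 1 library per group the spread of these shares is unknown.

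The comparison of the cultures asked which of these genes differed with the kinase inhibitor. A gene was called where log2(FPKM + 1) differed by at least 1, among genes with a mean of at least 1 FPKM over both libraries. By this rule 2.39% of 13241 genes were higher in the JNJ-7706621 library and 1.36% lower. Of the 9 genes 8 passed the filter, 1 of them was called higher, AKR1B1, and 0 lower. The median log2 difference of the 8 was 0.03, against -0.0032 over all genes kept, with 6 above 0 and 2 below. Since the genes were chosen with these data known, nothing is read from the count.

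AKR1B1 rested on 20066 reads in the JNJ-7706621 library and 9846 in the DMSO library. Its log2 difference was 1.06 and its FPKM ratio 2.09 (95% counting interval 2.04 to 2.14). The log2 difference lies close to the rule of size of 1. Among 304 protein-coding genes with a mean of at least 100 FPKM, a group set after the values were seen, 9 were called higher (2.96%), AKR1B1 among them, and 1 lower (0.329%).

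The genes next to it in the cluster had ratios near 1. AKR1B10 had a ratio of 1.02 (1.01 to 1.03), on 86912 reads in the JNJ-7706621 library and 87591 in the DMSO library. AKR1B15 had a ratio of 1.04 (0.941 to 1.14), on 871 reads in the JNJ-7706621 library and 862 in the DMSO library. AKR1B10 stood at 8.93 times the level of AKR1B1 in the JNJ-7706621 library and at 18.3 times in the DMSO library by exon length, and at 3.84 times in the JNJ-7706621 library and 7.88 times in the DMSO library by principal transcript.

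**Figure D3:**
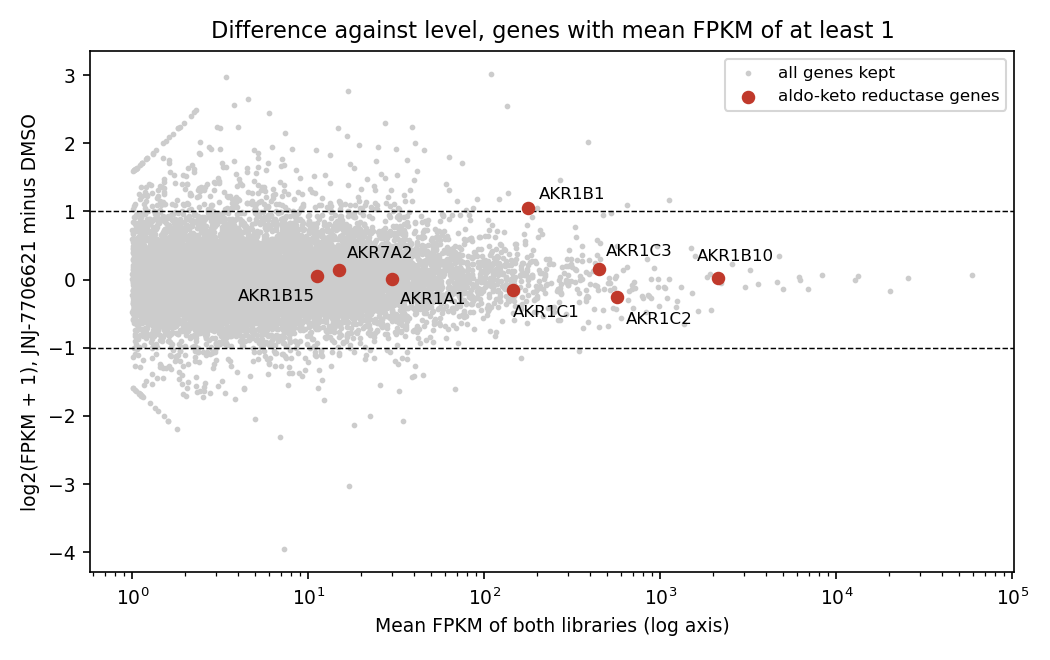
Each grey point is a gene with a mean of at least 1 FPKM, with its mean FPKM on a log axis across and its log2(FPKM + 1) in JNJ-7706621 minus DMSO upward, and dashed lines mark -1 and 1. Of the aldo-keto reductase genes in red, AKR1B1 lies above the upper line at 1.06 and the other 7 lie between -0.25 and 0.16.

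The AKR1C genes differed in both directions, by log2 differences of -0.25 for AKR1C2, -0.16 for AKR1C1 and 0.16 for AKR1C3. AKR1C2 had 76743 reads in the JNJ-7706621 library and 93452 in the DMSO library, a ratio of 0.841 (0.833 to 0.849). AKR1C1 had 27403 reads in the JNJ-7706621 library and 31289 in the DMSO library, a ratio of 0.897 (0.883 to 0.912). AKR1C3 had 42277 reads in the JNJ-7706621 library and 38801 in the DMSO library, a ratio of 1.12 (1.10 to 1.13). AKR1C1 and AKR1C2 were thus somewhat lower with JNJ-7706621 and AKR1C3 somewhat higher, and none was called.

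Since AKR1C1 and AKR1C2 have common reads, their reads were also summed. The sum does not depend on how such reads were divided between them. It would still depend on whether such reads were dropped or counted for both genes, which is not known. The summed reads were 104146 in the JNJ-7706621 library and 124741 in the DMSO library, and per library total their ratio was 0.855 (0.848 to 0.862). Their summed level, which does depend on that division because the exon lengths differ, was 658 FPKM in the JNJ-7706621 library and 771 FPKM in the DMSO library, a log2 difference of -0.23. With AKR1C3 added, the sum was 1131 FPKM in the JNJ-7706621 library and 1196 FPKM in the DMSO library, a log2 difference of -0.08. The level of AKR1C2 over AKR1C3 was 1.10 in the JNJ-7706621 library and 1.46 in the DMSO library.

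**Figure D4:**
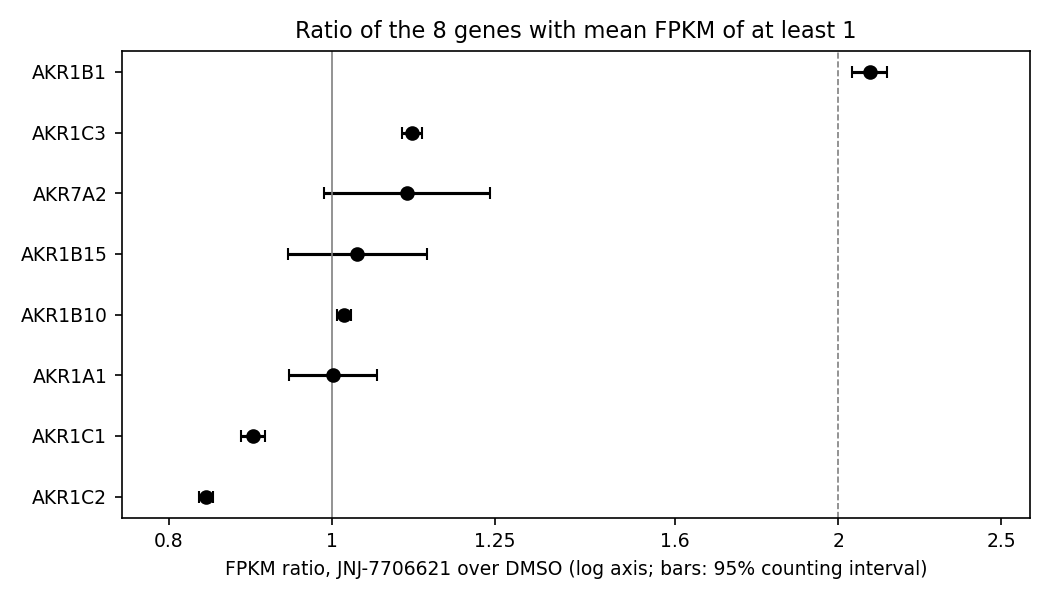
Points give the FPKM ratio, JNJ-7706621 over DMSO, of the 8 genes with a mean of at least 1 FPKM on a log axis, with 95% counting intervals, a solid line at 1 and a dashed line at 2. AKR1B1 stands at 2.09, and the other genes lie between 0.841 for AKR1C2 and 1.12 for AKR1C3.

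AKR1A1 and AKR7A2 had ratios of 1.00 (0.942 to 1.06) and 1.11 (0.989 to 1.24), whose counting intervals hold 1. AKR1A1 rested on 2122 reads in the JNJ-7706621 library and 2172 in the DMSO library. AKR7A2 had 634 reads in the JNJ-7706621 library and 586 in the DMSO library. Summed with AKR7A3, AKR7A2 had a log2 difference of 0.12, and AKR1B10 summed with AKR1B15 had 0.02.

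AKR1C1 and AKR1C2 are alike upstream too. The upstream sequence of AKR1C3 was not aligned with theirs, and a link between upstream likeness and the ratios was not tested. Windows of 250 bases before to 50 after the start (RefSeq, GRCh38.p14) were found for 7 of the 9 genes, 10 windows in all, and AKR1B10 and AKR1B15 were not searched. The windows of AKR1C1 (chr10:4963165-4963464, plus strand) and AKR1C2 (chr10:5003808-5004107, minus strand) share a span of 296 aligned columns, of which 288 are identical. Capitals mark bases that differ or that lack a partner in the other window.
AKR1C1: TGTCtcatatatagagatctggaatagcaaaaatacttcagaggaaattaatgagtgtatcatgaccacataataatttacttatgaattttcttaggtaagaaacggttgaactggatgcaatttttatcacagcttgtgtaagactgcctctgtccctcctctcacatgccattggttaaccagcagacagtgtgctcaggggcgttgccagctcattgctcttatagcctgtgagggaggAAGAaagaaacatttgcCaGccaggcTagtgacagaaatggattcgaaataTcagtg
AKR1C2: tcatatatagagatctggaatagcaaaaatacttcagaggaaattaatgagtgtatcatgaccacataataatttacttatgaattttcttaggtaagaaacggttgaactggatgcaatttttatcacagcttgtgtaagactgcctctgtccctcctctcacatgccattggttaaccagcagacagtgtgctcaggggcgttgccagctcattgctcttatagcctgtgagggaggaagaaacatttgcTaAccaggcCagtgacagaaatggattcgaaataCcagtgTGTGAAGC
The core of the antioxidant response element, TGACNNNGC on either strand, occurred in the windows of AKR7A2 alone among the 7 genes, with 3 matches, and in 13.3% of all 35116 windows. The CCAAT box, searched as CCAAT on either strand, occurred in the windows of AKR1B1, AKR1C1, AKR1C2 and AKR1C3 and in 34.6% of all windows. The osmotic response element core TGGAAA and the AP-1 site TGANTCA had 0 matches in the 10 windows, against 20.7% and 7.71% of all windows with at least 1. The TATA box, TATAAA, occurred in 1 of the windows of AKR1C3 and in 11.5% of all windows. A match is a description of letters, and the lack of one says nothing of a factor.

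Genes related to these enzymes were described from lists made by family, by shared substrates, or by the NRF2 pathway and NADPH supply. In these lists 0 genes were called in either direction, against 2.39% higher and 1.36% lower of all 13241 genes kept. With lists this short and shares this small, nothing is read from that count. Of 7 other genes of the superfamily 2 passed the filter. AKR1E2 had 5.78 FPKM in the JNJ-7706621 library and 4.39 FPKM in the DMSO library, a ratio of 1.32 (1.11 to 1.56). AKR1C4, the liver form of the AKR1C enzymes, had 1.90 FPKM in the JNJ-7706621 library and 1.36 FPKM in the DMSO library, on 83 reads in the JNJ-7706621 library and 61 in the DMSO library.

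Of 13 carbonyl reductase and polyol pathway genes 11 passed the filter, with a median log2 difference of 0.41, 6 above 0 and 5 below. The 3 with the highest level were CBR1, GLO1 and DHRS3. CBR1, a carbonyl reductase of similar substrates, had 43.7 FPKM in the JNJ-7706621 library and 48.7 FPKM in the DMSO library. GLO1, which detoxifies methylglyoxal, had 51.0 FPKM in the JNJ-7706621 library and 32.7 FPKM in the DMSO library, a log2 difference of 0.62. DHRS3, a retinaldehyde reductase, had 12.8 FPKM in the JNJ-7706621 library and 14.6 FPKM in the DMSO library. SORD, chosen after its value was seen because it turns the sorbitol made by AKR1B1 into fructose, had 13.1 FPKM in the JNJ-7706621 library and 7.24 FPKM in the DMSO library. Its ratio was 1.81 and its log2 difference, 0.77, was the largest of that list and below the rule of size.

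Of 20 steroid and retinoid oxidoreductase genes 15 passed the filter, with a median log2 difference of 0.25, 9 above 0 and 6 below. HSD17B10, a mitochondrial dehydrogenase, had 47.2 FPKM in the JNJ-7706621 library and 38.7 FPKM in the DMSO library. RETSAT, which saturates retinol, had 43.3 FPKM in the JNJ-7706621 library and 31.3 FPKM in the DMSO library. HSD17B11 had 25.1 FPKM in the JNJ-7706621 library and 28.2 FPKM in the DMSO library. These 3 had the highest levels of their list.

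All 22 NRF2 pathway and NADPH supply genes passed the filter, with a median log2 difference of 0.02, 12 above 0 and 10 below. NQO1, a quinone reductase, had 690.1 FPKM in the JNJ-7706621 library and 606 FPKM in the DMSO library. PGD, which makes NADPH in the pentose phosphate pathway, had 387 FPKM in the JNJ-7706621 library and 620 FPKM in the DMSO library, a log2 difference of -0.68. PRDX1, a peroxidase, had 353 FPKM in the JNJ-7706621 library and 341 FPKM in the DMSO library. The log2 differences of the list ran from -0.70 to 0.57.

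**Figure D5:**
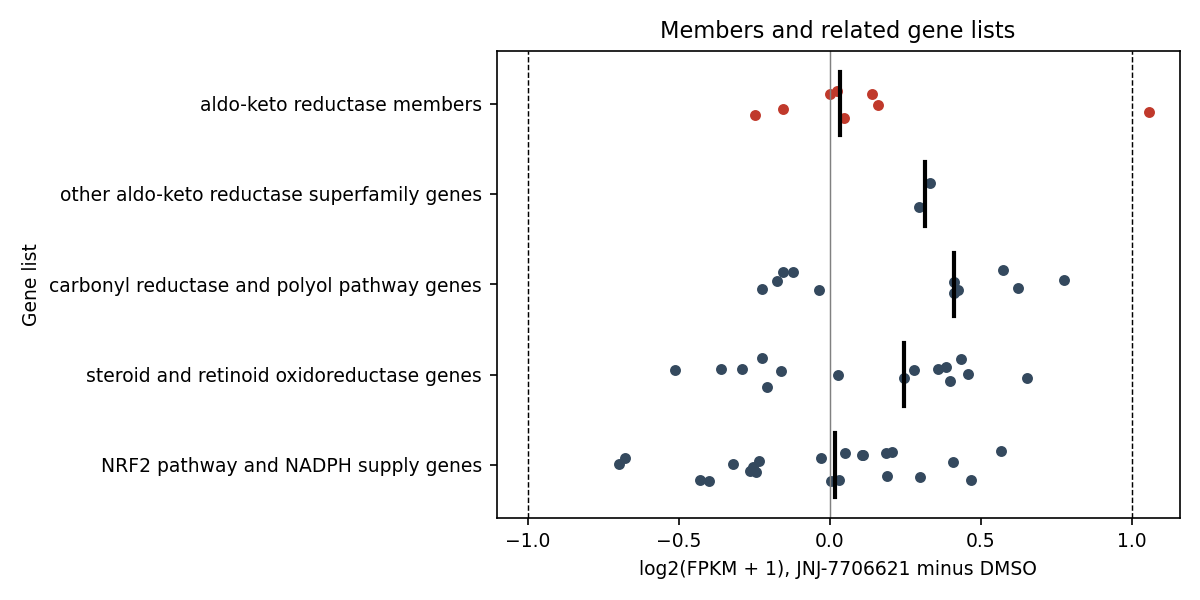
Each point is a gene with a mean of at least 1 FPKM, placed by its log2(FPKM + 1) in JNJ-7706621 minus DMSO, for the 9 aldo-keto reductases (red, 8 shown) and 4 related lists, with the median as a black bar and dashed lines at -1 and 1. AKR1B1 at 1.06 is the 1 point past a line, and the medians lie between 0.02 and 0.41.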

How the data were processed

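The deposited values are FPKM, as the file headers name them, made by the authors. In the submitters' processing notes hg38 and edgeR appear, with no role or version. For the aligner, counter, annotation and strand setting nothing was found in the labels. Of 4 value columns, 2 match the libraries described and 2 match no sample and stayed unused. Whole reads were recovered by choosing library totals, and exon lengths nearest to GENCODE release 29 (0.25 to 4 times), that turn FPKM into whole numbers within 0.0001. This worked for 27805 of 28014 genes and 99.7% of each total. From the reads came exact 95% intervals (Clopper-Pearson for ratios, Poisson for levels) and the floor of 3 reads. They cover counting error only and hold no spread between cultures. They are too narrow even for counting error where reads are PCR copies, which are not independent molecules. With 1 library per group no test was run. Differences are on the log2(FPKM + 1) scale, which understates those of low genes. Alternatives changed the pseudocount, scaling, filter and rule of size. Principal transcripts are those marked by APPRIS. Where several had the best mark, the longest coding sequence and then the longest transcript was taken. Coding bases were aligned with Biopython 1.88 and compared, since no protein table was used here. Scripts (Python 3.11.15, SciPy 1.17.1) were first checked on simulated reads. The true exon lengths were supplied there, so the choice of a length other than the annotated one was not checked. In the data the annotated length was the one used for 17325 of the 27805 genes. Members and lists were chosen with earlier results of these data known. All 9 members are named, and of each list the genes called and the 3 with the highest mean.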

Additional observations from a re-analysis of the deposited data

How the results depend on the processing

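The direction of AKR1B1 and its place past the rule of size did not change under pseudocounts of 0.1 and 0.5 and both rescalings. Its log2 differences ran from 1.04 to 1.06. These settings could hardly move it. The pseudocounts are small against its 241 FPKM in the JNJ-7706621 library and 115 FPKM in the DMSO library. The FPKM of all genes summed to 443285 in the JNJ-7706621 library and 437891 in the DMSO library. Both other filters keep the gene, with its mean of 178 FPKM, and cannot change its difference. The other 7 genes above 1 FPKM stayed below the rule under the same settings, and of these AKR1A1, whose counting interval holds 1, ranged from -0.02 to 0.01. The number of genes called moved with the settings. Against 316 higher and 180 lower, there were 608 and 409 with a pseudocount of 0.1, 714 and 478 after rescaling to a sum of 1000000, 145 and 75 with a mean of at least 5 FPKM, and 1130 and 897 with a rule of 1.5-fold. With a pseudocount of 0.5, 462 were higher and 274 lower. Each of these alternatives changes by its construction how many genes can pass. Levels by the length of the principal transcript, an alternative chosen after seeing the data, put AKR1B1 at 1.498 times AKR1C1 in the DMSO library, against 0.755 by exon length, and AKR1C2 at 0.873 times AKR1C3 in the JNJ-7706621 library, against 1.10. They put AKR7A2 at 0.866 times AKR1B15 in the JNJ-7706621 library and 0.809 times in the DMSO library, against 1.37 and 1.28. The order of AKR1B1 and AKR1C1 rests on the 6705 bases of the AKR1C1 transcript, since AKR1C1 had more reads than AKR1B1 in both libraries. No paired analysis was possible because each group has 1 library. Depth limits AKR7A3, with 7 reads at most, whose log2 difference without the filter would be -0.32.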

Other observations

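Of 15 further gene entries of the family whose symbols hold a P, as pseudogenes do, 7 had 0 FPKM in both libraries and 2 reached a mean of 1 FPKM. AKR1C7P had 7.79 FPKM in the JNJ-7706621 library, on 159 reads, and 4.16 FPKM in the DMSO library, on 87 reads, a ratio of 1.87 (1.43 to 2.46). AKR1B10P1, a processed copy that shares 5.99% of the words of 50 bases of AKR1B10, had 2.98 FPKM in the JNJ-7706621 library and 3.50 FPKM in the DMSO library. KCNAB1, a potassium channel subunit of the same superfamily and under 1 FPKM, had 40 reads in the JNJ-7706621 library and 111 in the DMSO library, a ratio of 0.369 (0.251 to 0.534). KCNAB3, another such subunit under 1 FPKM, had 38 reads in the JNJ-7706621 library and 16 in the DMSO library, a ratio of 2.43 (1.32 to 4.67). These genes were chosen after their values were seen.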
